A study of Mus musculus with 2 samples.

Results

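The genes described here carry arginine into the cell and pass it through the arginase, nitric oxide and polyamine routes. They are 10 of the 18194 genes with a probe set of their own on the array: the transporters Slc7a1 and Slc7a2, the arginases Arg1 and Arg2, the nitric oxide synthase Nos2, the recycling enzymes Ass1 and Asl, the hydrolase Ddah2 and the polyamine enzymes Odc1 and Sat1. They were chosen by pathway and partly for the ratios of Arg2, Slc7a2 and Ddah2, so the values of these genes are a description and carry no test. The 10 genes had 18 probe sets annotated to 1 gene only, out of 34958 such probe sets, and 14 of the 18 were above background on both arrays.

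RNA came from peritoneal macrophages of 8-week-old male C57BL6 mice, drawn into the peritoneal cavity by thioglycolate, an irritant medium, and grown in culture. One group received 100 ng/ml CSF1 for 12 h and the other was kept for 12 h with no CSF1. CSF1 is the macrophage colony-stimulating factor, which acts through the receptor Csf1r. Each group is 1 sample on 1 Affymetrix Mouse Genome 430 2.0 array, and the labels do not say whether the samples shared animals or whether animals were pooled. Each group being a single array, the differences below have no replicate check and no test, and their precision is limited by the number of arrays.

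Arginine enters macrophages largely through the cationic amino acid transporters CAT1 (Slc7a1) and CAT2 (Slc7a2). Inside the cell, arginase splits it into urea and ornithine, while nitric oxide synthase turns it into nitric oxide and citrulline, and the 2 routes draw on the same arginine. Ornithine feeds the polyamines and proline, and citrulline can be rebuilt into arginine. In mouse macrophages, Arg1 is a classical gene of alternative activation by interleukin-4 and Nos2 of activation by interferon and bacterial products.

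The deposited arrays had the same trimmed mean, and a background level of 139.36 array units was set from genes of unrelated tissues. On the CSF1 array 40.8% of probe sets lay above it, and on the control array 42.5%. Of 11036 genes above it on at least 1 array, here called measured, 79 were at least 2-fold lower and 105 at least 2-fold higher with CSF1, and the median log2 ratio of CSF1 over control was 0.00. Probe sets of the same gene disagreed by 0.29 in log2 ratio (pooled SD, 3805 genes), a spread within these arrays that leaves out cultures and animals. Probe sets of a gene can match different transcripts, so this spread is not error of measurement alone. The ratio of 3' to 5' signal of Gapdh was 1.40 on the CSF1 array and 1.03 on the control array, against 1.38 and 1.35 for Actb. The part of this Gapdh difference in the results below was not tested.

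The cells carried macrophage markers, with all 10 above background on both arrays, among them Cd68 at 28929 units with CSF1 and 38569 units in control. Fibroblast markers were also present: all 8 were above background on both arrays, and on the brightest probe set of each all had a ratio above 0, from 0.12 to 0.78 on the log2 scale. For 2 of them, Col1a1 and Pdgfra, another probe set was below 0, at -0.25 and -0.58. Fibroblast signals summed to 66088 units with CSF1 and 52311 units in control. Macrophage markers summed to 139767 units with CSF1 and 164913 units in control. On the brightest probe set of each, 8 of 10 were below 0, with a median log2 ratio of -0.16. Of the 8, Fcgr1 and Msr1 were at -0.03 and -0.0005, and their averages over probe sets were 0.03 and 0.03. Cd68, Lyz2 and Csf1r, the brightest of the list, had log2 ratios of -0.41, -0.37 and -0.34. At the level of Arg1, near that of Cd68 and Lyz2, probe sets had a median log2 ratio of -0.22. The part of this shift in the sums was not tested. Of the neutrophil markers, Mpo, Elane, Camp, Ltf, Ngp, S100a9 and Cxcr2 were below background on both arrays, while the 2 measured ones went opposite ways, Mmp8 2.10-fold lower and S100a8 1.13-fold higher. The neutrophil list summed to 7308 units with CSF1 and 8180 units in control. T and NK lymphocyte markers summed to 1822 units with CSF1 and 2942 units in control, with Cd3e, Cd4 and Ncr1 below background. Gzma, 3.29-fold lower at 472 units with CSF1 and 1554 units in control, carried most of that difference, while Cd3d was 1.27-fold higher and Cd2, Nkg7 and Cd8a had log2 ratios of -0.04, -0.14 and -0.18. Mast cell markers summed to 2276 units with CSF1 and 2660 units in control. Those of B cells, eosinophils, dendritic cells and mesothelial cells summed to between 311 and 912 units with CSF1 and between 331 and 674 units in control. All sums include genes below background, such as 4 each in the eosinophil, dendritic and mesothelial lists. No cell type or difference is read from these low sums. Zbtb46, the only dendritic marker measured, was 2.20-fold lower, at 144 units with CSF1, close to background, and 318 units in control. Only 1 of its 4 probe sets was above background on both arrays. In bulk RNA, fewer cells of a type and less RNA per cell cannot be told apart, and the part of these markers in the values of the arginine genes was not tested.

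Of the 10 arginine genes, 2 were at least 2-fold lower with CSF1 (Arg2 and Slc7a2) and 1 was at least 2-fold higher (Ddah2). Among all measured genes the shares were 0.716% lower and 0.951% higher. Nothing is read from this contrast, because these 3 ratios were part of the choice. Of the other 7 genes, 6 were measured: Slc7a1, Arg1, Asl, Odc1 and Sat1 lay within 2-fold on their brightest probe set, Ass1 had a lower bound under 2-fold that leaves its fold open, and Nos2 stayed under background on both arrays. The median log2 ratio over the 9 measured genes was 0.01.

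**Figure D1:**
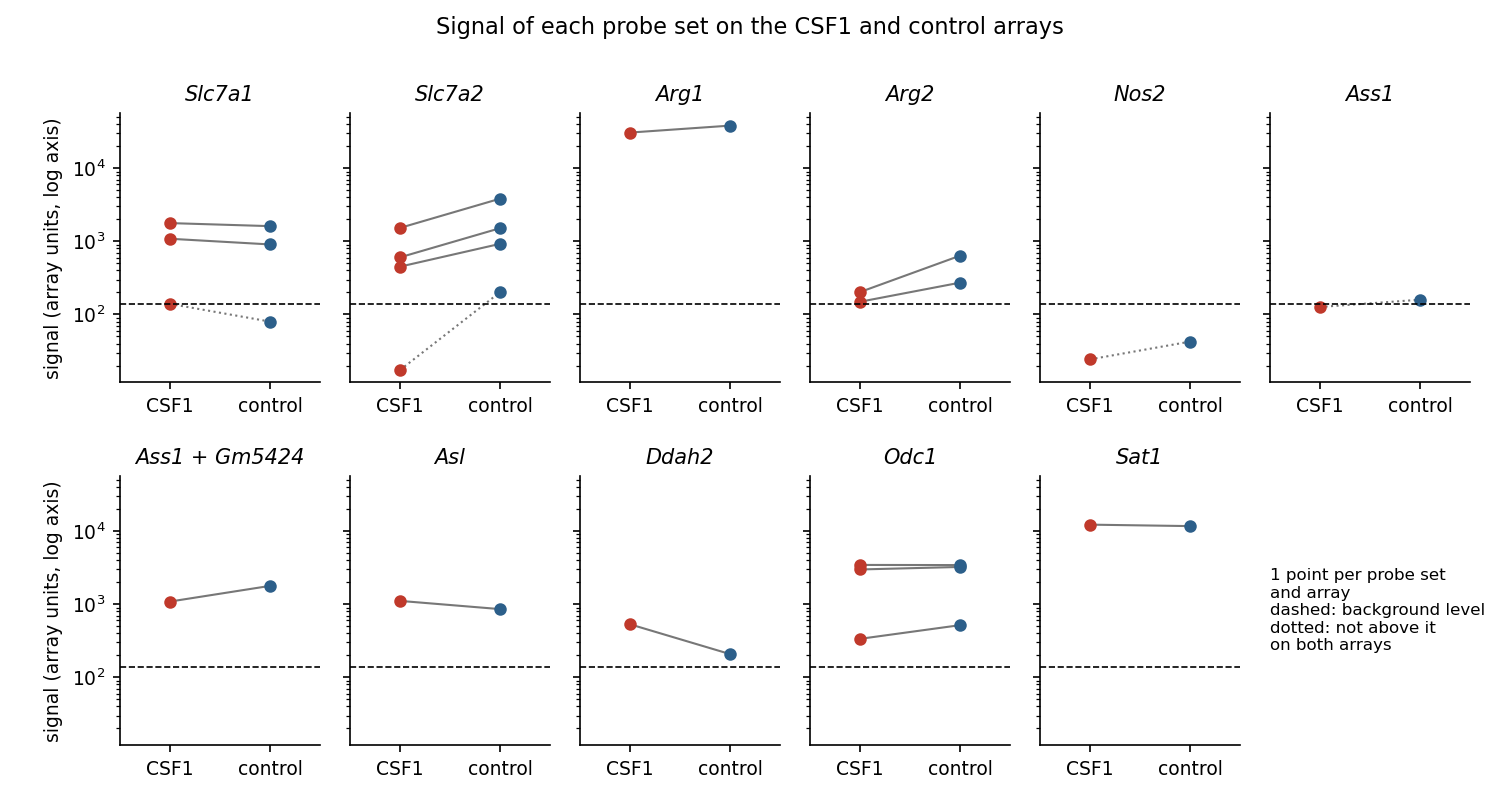
Signal of every probe set of the 10 genes on the CSF1 array (red, left) and on the control array (blue, right), in array units on a log axis, with lines joining the same probe set and a dashed line at the background level of 139.36 units. All 4 probe sets of Slc7a2 and both of Arg2 are lower with CSF1, the probe set of Ddah2 is higher, and that of Nos2 lies below background on both arrays.

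The transporter Slc7a2 was lower with CSF1 on every one of its 4 probe sets. CAT2, its product, is the inducible cationic amino acid transporter of macrophages, made in a low-affinity and a high-affinity form by alternative splicing. The brightest probe set, 1436555_at, had 1525 units on the CSF1 array and 3825 units on the control array, 2.51-fold lower. Probe set 1426008_a_at had 604 units with CSF1 and 1511 units in control, 2.50-fold lower, and 1422648_at had 450 units with CSF1 and 922 units in control, 2.05-fold lower. The 3 probe sets measured on both arrays thus gave similar sizes, averaging -1.23 ± 0.17 in log2 ratio (SD, 3 probe sets). The fourth, 1450703_at, was made from the same source sequence as 1422648_at and so is not independent of it. It was at 17.4 units with CSF1, under the background level, and at 201 units in control, at least 1.44-fold lower.

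Slc7a1, the broadly expressed transporter CAT1 of the same family, did not share this difference. Its brightest probe set had 1774 units with CSF1 and 1612 units in control, 1.10-fold higher, and the next had 1084 units with CSF1 and 906 units in control, 1.20-fold higher. Both were made from 1 source sequence, and their log2 ratios averaged 0.20 ± 0.08 (SD, 2 probe sets). The lowest of these ratios, 0.14, lay above the highest measured on both arrays for Slc7a2, -1.04. The dimmest Slc7a1 probe set was at 139.38 units with CSF1, at the edge of background, and 79.8 units in control, under it.

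To show how far such ratios stand from the rest of the array, each was set beside every probe set that exceeded background on both arrays and whose mean log2 signal lay within 0.5 of its own. For Slc7a2, 2021 probe sets lay at the level of the brightest one. The central 95% of their log2 ratios ran from -0.59 to 0.63, and 1 of them was lower than Slc7a2. The ratios of Slc7a1 lay inside the range of their own neighbours. This range describes the spread of 1 pair of arrays and holds true changes as well as noise. For signals near background it is also narrowed, because probe sets under background on 1 array are left out. Slc7a2, Arg2 and Ddah2 were chosen partly for their ratios, so their places and ranks, here and below, describe that choice.

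**Figure D2:**
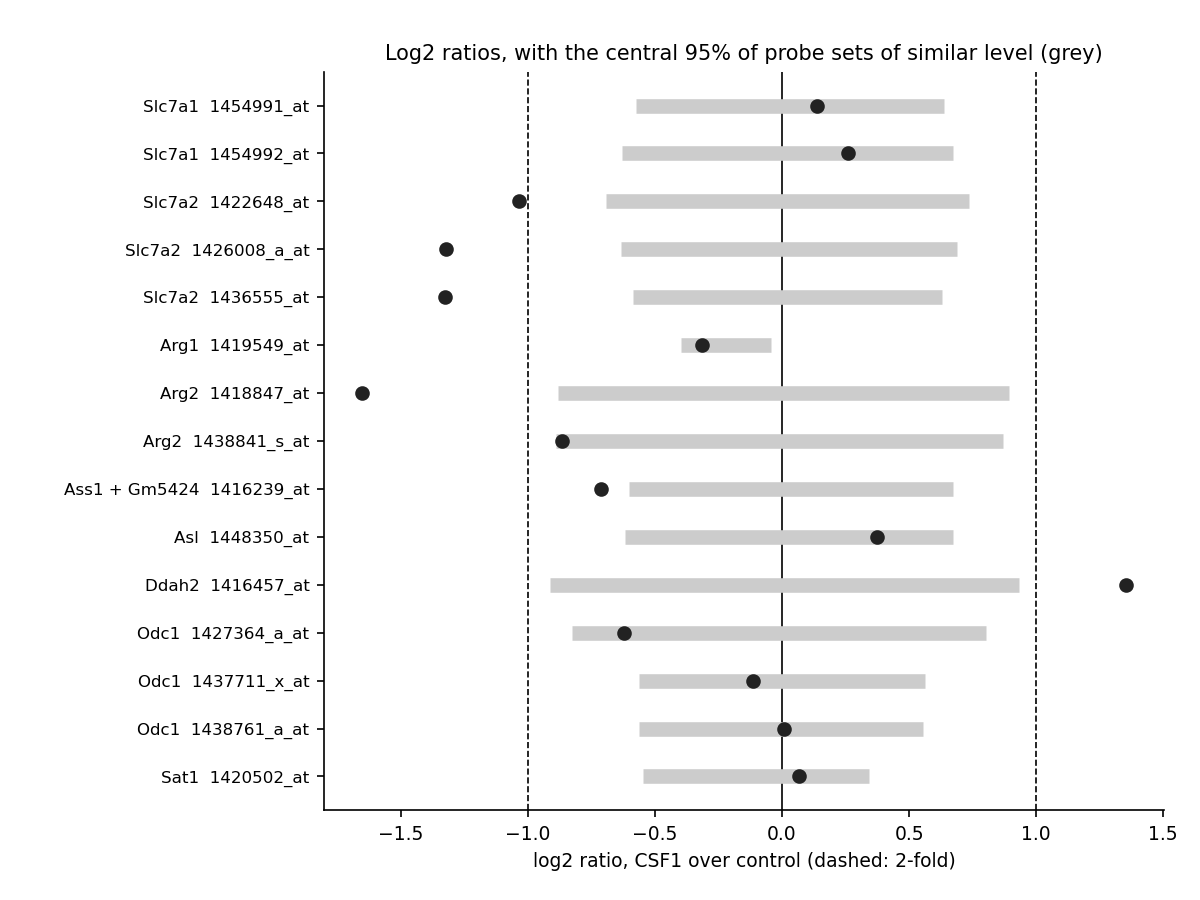
Log2 ratio of CSF1 over control (points, horizontal axis) for the probe sets above background on both arrays, including the Ass1 probe set shared with the pseudogene Gm5424. Grey bars span the central 95% of ratios of probe sets of similar level, and dashed lines mark 2-fold. The 3 Slc7a2 probe sets and the brightest of Arg2 lie left of their bars and past 2-fold, and Ddah2 lies right of its bar.

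The 2 arginases differed in size of ratio. Arg2, the mitochondrial arginase, had 202 units on the CSF1 array and 635 units on the control array on its brightest probe set, 1418847_at, 3.14-fold lower. This was the fourth lowest ratio of the 11036 measured genes, and 3 of 3995 probe sets of similar level were lower. Of the measured genes, 9650 were above background on both arrays. The others entered the rank with their bounds, so some of them may in truth lie lower than Arg2. Its other probe set, 1438841_s_at, had 149 units with CSF1 and 272 units in control, 1.82-fold lower. The name of this second probe set marks it as possibly matching several transcripts. That probe set stood at the edge of the range of its neighbours, -0.89 to 0.87, a range narrowed by the filter at this low level. Both probe sets pointed the same way, averaging -1.26 ± 0.55 in log2 ratio (SD, 2 probe sets). On the CSF1 array both signals were close to background, so the fold is limited by the low end of the scale.

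Arg1, the cytosolic arginase, had 30700 units on the CSF1 array and 38212 units on the control array on its only probe set, 1.24-fold lower. The other probe sets this bright were lower by similar amounts. The 147 probe sets of similar level, Arg1's own included, had a median log2 ratio of -0.22 and a central 95% from -0.40 to -0.05. Arg1 was at -0.32. The SD of ratios at this level was 0.10, against 0.44 at the level of the brightest Arg2 probe set. Whether ratios are narrowed at the top of the signal scale was not tested. After quantile normalization, which gives both arrays the same distribution of signals, the log2 ratio of Arg1 was -0.06, and after a loess correction for signal level it was -0.13. A difference in Arg1 beyond that of other bright probe sets was therefore not detectable on these arrays. For Arg2 the same alternatives gave -1.62 and -1.62.

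Nos2, the inducible nitric oxide synthase, lay under background on both arrays, with 24.3 units with CSF1 and 42.4 units in control on its single probe set, and no fold is given. The other nitric oxide synthase genes gave little signal too. Nos3, the endothelial enzyme, was at 118 units with CSF1 and 133 units in control, both under background. Nos1, the neuronal enzyme, was under background with CSF1, at 132 units, and at 178 units in control, a bound of 1.28-fold lower. Both Nos1 signals lay under the stricter background level of 189.6 units described below, so no direction is read from them. None of its 4 probe sets was above background on both arrays.

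Ddah2 was the arginine gene with the largest higher ratio. It encodes a dimethylarginine dimethylaminohydrolase, a family named for breaking down methylated arginines that inhibit nitric oxide synthases. Its single probe set, 1416457_at, had 532 units on the CSF1 array and 208 units on the control array, 2.55-fold higher. This was rank 25 from the top among measured genes, with bounds counted as in the rank of Arg2. Of 4064 probe sets of similar level, 25 were higher, with a central 95% from -0.91 to 0.93 on the log2 scale. The control signal lay above the stricter background level of 189.6 units, taken at the 95th percentile of genes of unrelated tissues, but not far from it. With no second probe set, this ratio has no check within the arrays.

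Its relative Ddah1 had 4 probe sets measured on both arrays, and they did not point the same way. The brightest had 770 units with CSF1 and 1044 units in control, 1.35-fold lower, while the log2 ratios of the 4 ran from -0.44 to 0.70. Their SD of 0.49 exceeds the brightest ratio itself, so no direction is given for Ddah1.

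The upstream sequences of Ddah2 and Ass1 are shown because, of the 5 of 10 members matched in RefSeq's promoter table, Ddah2 was the one past 2-fold and Ass1 the one whose shared probe set lay outside the range of its neighbours, as given below. The other matched members were Slc7a1, Odc1 and Sat1. Each is the 250 bases before the annotated start, on the plus strand of build GRCm38.p6, at chr17:35058785-35059034 for Ddah2 and chr2:31470020-31470269 for Ass1, and capitals mark matches to searched motifs.
Ddah2: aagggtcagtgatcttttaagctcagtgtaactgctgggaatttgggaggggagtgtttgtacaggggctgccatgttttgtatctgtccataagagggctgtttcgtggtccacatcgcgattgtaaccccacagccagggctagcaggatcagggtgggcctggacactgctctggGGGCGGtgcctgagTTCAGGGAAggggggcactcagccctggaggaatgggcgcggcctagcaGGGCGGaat
Ass1: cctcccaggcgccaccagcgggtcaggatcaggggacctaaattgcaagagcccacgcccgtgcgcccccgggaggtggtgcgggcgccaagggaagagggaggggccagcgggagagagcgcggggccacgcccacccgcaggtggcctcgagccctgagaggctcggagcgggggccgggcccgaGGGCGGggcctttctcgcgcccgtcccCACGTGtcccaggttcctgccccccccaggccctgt

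The motifs searched on both strands were the GC box GGGCGG, the E-box CACGTG, the TATA motif TATAAA, the CCAAT box and the STAT-type motif TTCNNNGAA, and no matches overlapped in these windows. Ddah2 held 2 GC boxes, starting 72 and 9 bases before the annotated start, and 1 STAT-type match 58 bases before it. Ass1 held 1 GC box 63 bases and 1 E-box 36 bases before the start. Among the matched members not shown, Slc7a1 also held a STAT-type match, 146 bases before an annotated start. Slc7a1, Odc1 and Sat1 all held GC boxes. Of 32851 upstream windows in the table, 32.7% held a GC box, 7.02% the STAT-type motif and 6.02% an E-box. These are matches of letters, not sites of binding.

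Citrulline is joined to aspartate by Ass1, argininosuccinate synthase, and the product is split to arginine and fumarate by Asl, argininosuccinate lyase. The pair gave ratios on opposite sides of 0. The probe set assigned to Ass1 alone was at 126 units with CSF1, under background, and 159 units in control, at least 1.14-fold lower. Both of these signals lay under the stricter background level of 189.6 units. A much better measured probe set, 1416239_at, is annotated to both Ass1 and Gm5424, a transcribed pseudogene, and therefore lies outside the 18. It had 1089 units with CSF1 and 1783 units in control, 1.64-fold lower, below the central 95% of probe sets of similar level (-0.60 to 0.67), of which 34 of 2747 were lower. Signals of the 2 transcripts cannot be separated on it. Asl had 1112 units with CSF1 and 858 units in control, 1.30-fold higher, inside the range of its neighbours (-0.62 to 0.67).

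The polyamine enzymes among the members lay close to 0. Odc1, ornithine decarboxylase, makes putrescine from ornithine and is the committed step of the route. Its brightest probe set had 3450 units with CSF1 and 3433 units in control, 1.005-fold higher, and the next had 2991 units with CSF1 and 3237 units in control, 1.08-fold lower. The dimmest had 336 units with CSF1 and 518 units in control, 1.54-fold lower. The names of all 3 mark them as possibly shared between transcripts, and their log2 ratios averaged -0.24 ± 0.33 (SD, 3 probe sets), so the sign of the Odc1 ratio depends on the probe set. Sat1, which acetylates spermidine and spermine for breakdown or export, had 12268 units with CSF1 and 11719 units in control, 1.05-fold higher, inside the range of its neighbours (-0.55 to 0.34).

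**Figure D3:**
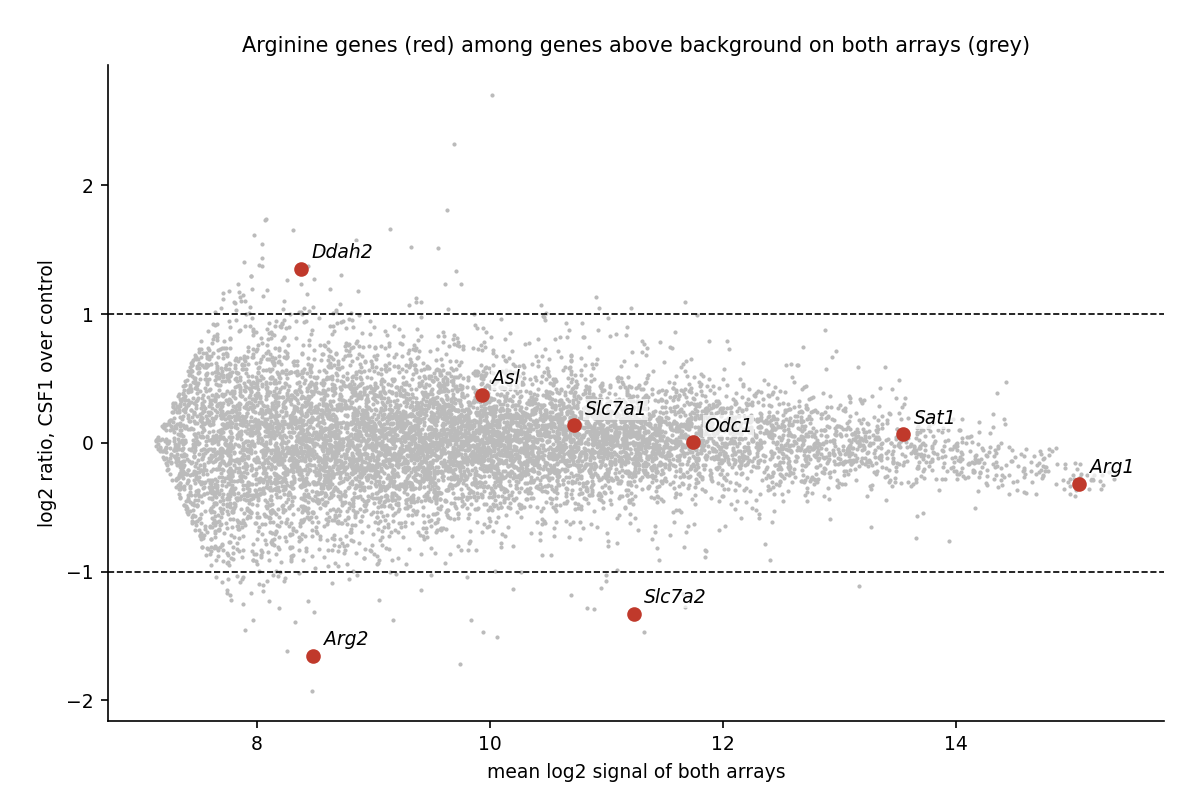
Log2 ratio of CSF1 over control (vertical axis) against mean log2 signal (horizontal axis) for the genes above background on both arrays, each on its brightest probe set, with the 8 arginine genes measured on both arrays in red and dashed lines at 2-fold. Arg2 and Slc7a2 lie below the lower line and Ddah2 above the upper one, and Arg1 lies at the bright end where most points are below 0.

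A list of 62 further genes of these routes was drawn up by pathway, of which 46 were measured, 8 were below background and 8 had no probe set of their own. Of the 46, 26 were above 0 and 20 below, and none had a ratio or bound past 2-fold. With 0.716% of all measured genes at least 2-fold lower and 0.951% at least 2-fold higher, a count of 0 among 46 is near the background share. For 39 this means a ratio within 2-fold, while the other 7, at background on 1 array, have bounds that leave the fold open. The median log2 ratio was 0.13, beside 0.00 over all measured genes. Where a gene had more than 1 probe set above background on both arrays, as 17 did, the probe sets took opposite signs in 10.

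Among the remaining carriers of arginine and its relatives, 6 of 7 measured were above 0, beside 50.2% of all measured genes, and 1 of the 6, Slc25a15, was at 0.01 on the log2 scale. The mitochondrial aspartate-glutamate carrier Slc25a13, which supplies aspartate for the Ass1 reaction, had 730 units with CSF1 and 481 units in control, 1.52-fold higher. Slc25a29, a mitochondrial carrier of basic amino acids, was the lowest, 1.02-fold lower, with 286 units with CSF1 and 292 units in control. Its other probe set measured on both arrays was at 0.15 on the log2 scale, and the average was 0.06. The y+L transporters that exchange cationic for neutral amino acids were Slc7a6, 1.31-fold higher, and Slc7a7, 1.13-fold higher, on their brightest probe sets. A second probe set of each was below 0, at -0.39 for Slc7a6 and -0.12 for Slc7a7, and the averages over both were 0.001 and 0.03. Their shared heavy chain Slc3a2 was 1.09-fold higher.

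Ornithine can also leave toward proline. Aldh18a1, the enzyme that makes pyrroline-5-carboxylate from glutamate, had 1017 units with CSF1 and 589 units in control, 1.73-fold higher, and the 3 of its probe sets measured on both arrays ran from 0.25 to 0.79 on the log2 scale. Pycrl, also called Pycr3, a reductase of the last step to proline, was 1.33-fold higher, and Oat, ornithine aminotransferase, was 1.14-fold higher. Of the proline-degrading genes, Aldh4a1 was under background with CSF1, at 118 units, and at 223 units in control, at least 1.60-fold lower. Prodh was at 135 units with CSF1, under background, and 184 units in control, a bound of 1.32-fold lower. Both Prodh signals lay under the stricter background level of 189.6 units, so no direction is read from them.

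Of the 6 listed genes of polyamine synthesis beyond Odc1, 3 had a probe set of their own, of which 2 were above 0 and none was past 2-fold. Srm, spermidine synthase, had 1804 units with CSF1 and 1032 units in control on its single probe set, 1.75-fold higher. Sms, spermine synthase, had only probe sets shared with its pseudogene Sms-ps, and both of those above background on both arrays were higher, with 2511 units with CSF1 against 1709 units in control on one and 966 units against 655 units on the other. Their log2 ratios averaged 0.558 ± 0.004 (SD, 2 probe sets), and signals of Sms and Sms-ps cannot be separated on them. In the same list, Mtap, which salvages the methylthioadenosine left by both synthases, was 1.09-fold higher and Mat2b 1.05-fold lower. The 4 probe sets of Mtap ran from -0.06 to 0.34 on the log2 scale.

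The 3 measured genes of the antizyme group were within 2-fold. The antizyme genes Oaz1 and Oaz2, whose products target ornithine decarboxylase for degradation, were 1.08-fold and 1.15-fold lower, and Azin1, the antizyme inhibitor, was 1.10-fold lower. Among genes of polyamine breakdown and transport, the lysosomal polyamine exporter Atp13a2 had 2472 units with CSF1 and 3795 units in control, 1.53-fold lower by the brightest probe set, while the other gave a log2 ratio of -0.11. Sat2, related to Sat1, was at 205 units with CSF1 and under background in control, at least 1.47-fold higher. Of the genes that make or carry the hypusine of eIF5A, a modification built from spermidine, Dohh was 1.25-fold higher and Eif5a2 1.24-fold lower.

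Genes that supply the tetrahydrobiopterin cofactor of nitric oxide synthases were split. Gch1, the first enzyme of its synthesis, had 2261 units with CSF1 and 1600 units in control, 1.41-fold higher, but its other probe set had a log2 ratio of -0.26. Pts, the next enzyme, was 1.32-fold lower. Among the other users of arginine, Gatm, which starts creatine synthesis, was 1.32-fold lower, with 755 units with CSF1 and 995 units in control. The creatine transporter gene Slc6a8 was 1.29-fold higher on its brightest probe set, and log2 ratios averaged 0.37 ± 0.01 (SD, 2 probe sets). Cav1, caveolin, which binds the endothelial nitric oxide synthase, was 1.31-fold higher.

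**Figure D4:**
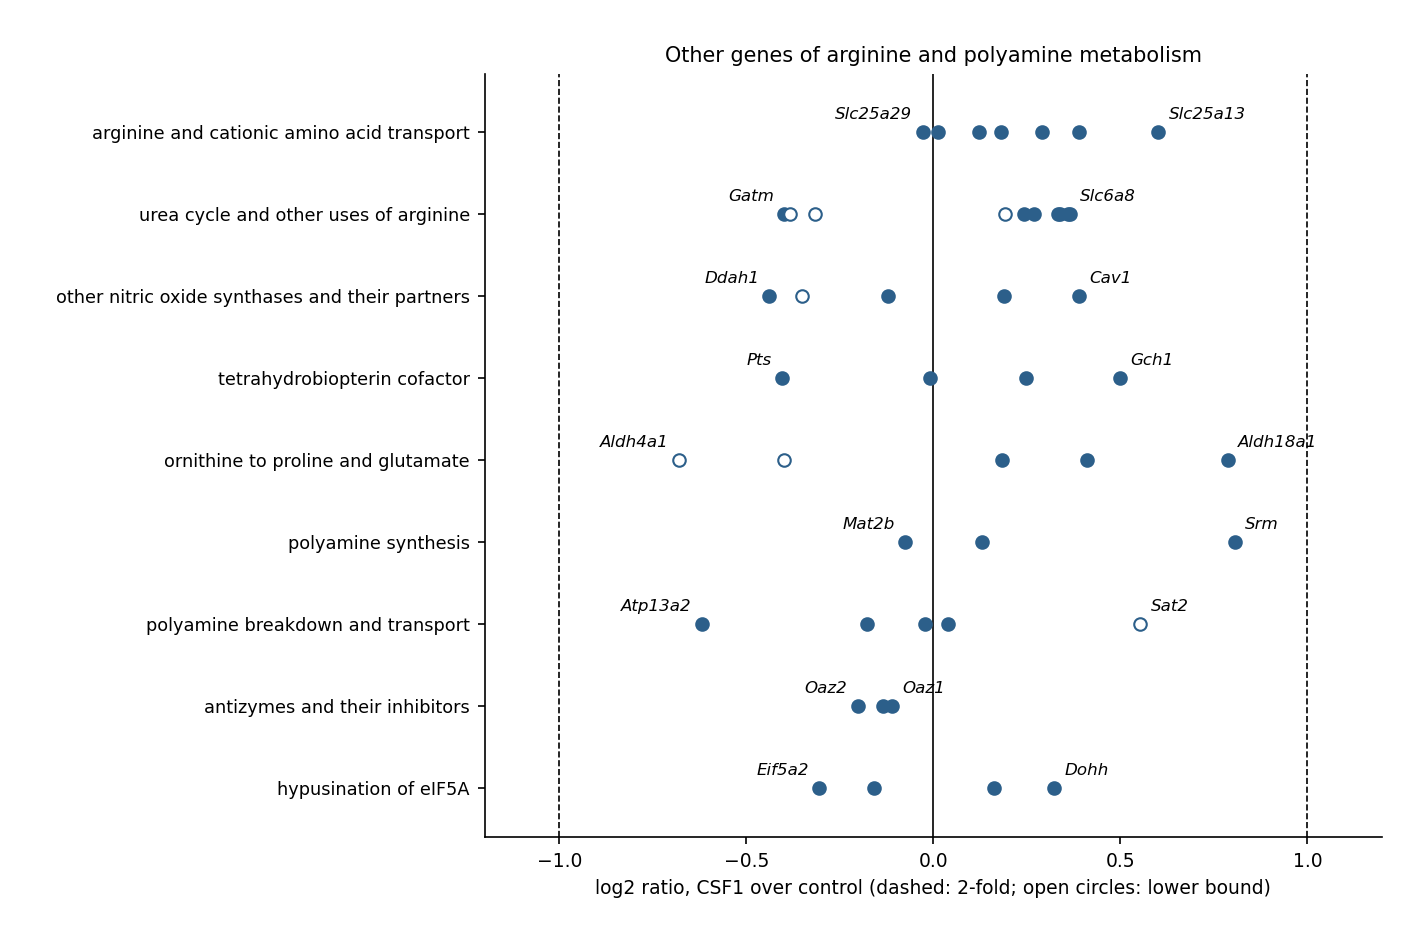
Log2 ratio of CSF1 over control (horizontal axis) of the 46 measured genes of the pathway list, by role (rows), each on its brightest probe set. Filled circles are above background on both arrays, open circles are lower bounds, and the lowest and highest gene of each role is named. All lie within the dashed 2-fold lines, from -0.68 for Aldh4a1 to 0.81 for Srm.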

How the data were processed

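The authors deposited 1 intensity per probe set and array, on a linear scale, from GeneSpring 6.2, per the series' design text. The arrays had the same mean once 2% of values was trimmed at either end. The sources used here do not give how probes were summarised.

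Values were moved to log2 with no further scaling, and each probe set's CSF1 value was set over its control value. Gene names came from the platform annotation, in which 34958 of 45101 probe sets had 1 symbol, 932 several and 9211 none. Each gene was represented by the probe set with the highest mean log2 value among those with exactly 1 symbol. The background level was the 90th percentile over 144 probe sets for 84 of 96 listed genes of unrelated tissues. Lower values were raised to it, and a fold against such a value is a lower bound. Groups were taken from the labels. With 1 array per group, no test was run.

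The 10 members, the pathway list and the marker lists were chosen with earlier results of these data known. Named were all members, the highest and lowest measured gene of each pathway role, and further list members after their values were seen (Slc7a6, Slc7a7, Slc3a2, Pycrl, Oat, Prodh, Mtap, Azin1, Nos1, Nos3, Sms). With 1 ratio per gene no likeness of pattern between genes can be defined, so ranks were given. The steps were tested on simulated data, with changes placed only in genes far above background and the same noise at every level. That simulation does not cover signals as low as those of Arg2 and Ddah2. Alternatives were 4 other scalings, 3 other background levels, 2 other choices of probe set and 2 other fold thresholds, and, after seeing the data, 4 more. Software was matplotlib 3.10.9, statsmodels 0.14.6, scipy 1.17.1, pandas 2.3.3, numpy 2.4.6 and Python 3.11.15.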

Additional observations from a re-analysis of the deposited data

How the results depend on the processing

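Other background levels and filters cannot move Arg2, Slc7a2 or Ddah2, whose brightest probe sets lie above them, and centring shifts all genes alike. Quantile normalization and loess, which can, gave -1.62 and -1.62 for Arg2, -1.35 and -1.35 for Slc7a2, and 1.39 and 1.39 for Ddah2, genes chosen for these ratios. The mean of all probe sets gave -1.26 for Arg2 and -1.81 for Slc7a2, that of Slc7a2 being drawn down by a signal under background on the CSF1 array. With each probe set raised to background before averaging, added after seeing the data, the values were -1.26 and -1.05. Ddah2 has 1 probe set and cannot be averaged. Ass1 was at -0.71 on the probe set shared with Gm5424, chosen after seeing the data. Odc1 ran from -0.24 to 0.02, and the median of the members from -0.19 to 0.05. At 3-fold, 1 member was lower and 0 were higher.

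Counts over all genes depended on the floor under low signals. With its stricter setting (95th percentile) they were 50 lower and 62 higher, at the median of all values 197 and 195, and with none 1925 and 1743. In the pathway list, the last 2 levels gave 1 gene at least 2-fold higher, and 4 lower and 2 higher, where low signals enter. The mean of all probe sets gave 130 genes lower, and with each raised to background first 38 were lower and 54 higher. At 1.5-fold, 594 genes were lower and 649 higher, with 2 and 3 in the pathway list, and at 3-fold 6 and 9. Centring on the hybridisation spikes moved the overall median to 0.28, with 19 lower and 315 higher before that median was subtracted. Only the spike-centred gene values within the ranges above are relative to that median, and the folds in the Results are on the deposited scale. The spikes had a mean log2 ratio of -0.29, so without the subtraction genes above background on both arrays would have higher ratios. Member values without it were not computed. No paired analysis was possible because each group has 1 array. Low signal over background limits Arg2, Nos2, Nos1, Prodh and the Ass1 probe set of its own.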
